A study of Mus musculus with 6 samples.

Results

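L1Md_Gf is a subfamily of mouse LINE-1 (L1), the retrotransposons that copy themselves through an RNA intermediate. The regions described here are those, in a ChIP-seq series on PHF13 (SPOC1) in testis, whose centre carries the repeat name L1Md_Gf and which lie on chromosomes 1 to 19 or X. They were chosen by these annotations, and not by score or length. There were 264 such regions among 39096 in the whole list, and among 23030 on the same chromosomes. PHF13 is a PHD finger protein that binds the methylated tail of histone H3. The libraries were 3 SPOC1 ChIP and 3 input libraries from whole testis of C57Bl/6 mice aged 5 weeks. By the labels, ChIP replicate 1 is wild type and ChIP replicates 2 and 3 are Phf13-/-, while input replicates 1 and 2 are wild type and input replicate 3 is Phf13-/-. The labels of replicate 2 therefore differ between its ChIP and its input, and genotype was not used. The list gives 1 score per region and 0 columns for single libraries, so no value below has a replicate error. ChIP could not be set against input, and the regions are not called PHF13 sites.

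A full-length L1 carries a promoter at its 5′ end and a pair of open reading frames, ORF1 for an RNA-binding protein and ORF2 for the endonuclease and reverse transcriptase. Most genomic copies lack part of the 5′ end. In mouse, the young subfamilies are named after their promoter type, and the A, T and Gf subfamilies include copies still able to move, while F-type promoters are mostly older. In male germ cells the PIWI-interacting RNA pathway, DNA methylation and H3K9 methylation keep L1 silent.

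Regions at L1Md_Gf made up 1.58% of the 16717 L1 regions on these chromosomes (Wilson 95% interval 1.40 to 1.78%) and 1.66% of the 15946 regions whose repeat name starts with L1Md (1.47 to 1.87%). Neighbouring regions can belong to 1 element, so such intervals are too narrow, and they cover counting error only. For comparison the same chromosomes held 8708 regions at L1Md_T, 5830 at L1Md_A, 925 at L1Md_F2, 141 at L1Md_F3 and 78 at L1Md_F. How many L1Md_Gf copies each chromosome carries was not analysed here, so none of these shares is an enrichment.

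Most regions were short, and a minority extended over several kilobases. The median length of L1Md_Gf regions was 867.5 bp, with quartiles of 500 and 1913 bp and a longest region of 5835 bp. Exactly 500 bp was the length of 67 regions (25.4%, Wilson 95% interval 20.5 to 31.0%), and 21 regions (7.95%, 5.26 to 11.9%) were longer than 4000 bp. Regions of more than 4000 bp made up 6.44% at L1Md_T, 3.40% at L1Md_A and 3.49% over all regions on these chromosomes. The L1Md_Gf interval included the share of L1Md_T, but not that of L1Md_A or of all regions. Exactly 500 bp long were 28.8% at L1Md_T, 29.2% at L1Md_A and 37.0% over all regions. Here the L1Md_Gf interval included the shares of L1Md_T and L1Md_A, but not that of all regions. At L1Md_F2, 70.9% were exactly 500 bp long and 2 of 925 were longer than 4000 bp.

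The authors' score has no stated unit. Across the 264 regions it had a median of 25.7, with quartiles of 17.4 and 58.3, and ran from 5.73 to 197.7. All scores of the members fell on multiples of 0.2124, to within their printed precision. If 1 step were 1 tag, the median score would be 121 tags, with a 95% Poisson interval of 100.4 to 144.6, and the lowest score 27 tags (17.8 to 39.3). Score followed length closely, so it was also divided by length. The score per kb had a median of 29.7, quartiles of 25.6 and 34.4, and a range from 11.5 to 45.7. It varied least, relative to its level, among the longest regions. Its quartiles were 21.2 and 33.8 in regions of 500 bp and 31.1 and 35.7 in regions over 4000 bp.

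**Figure D1:**
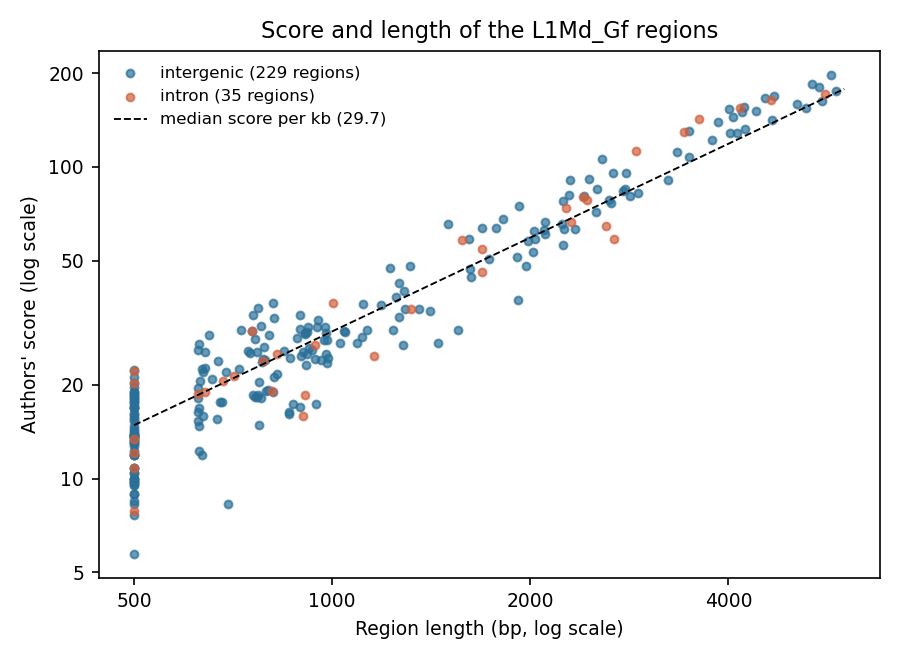
Authors' score against region length for the 264 L1Md_Gf regions, both axes on a log scale, with 229 intergenic regions in blue and 35 intronic regions in orange. The points follow the dashed line of the median score per kb (29.7), and those of 500 bp scatter most, down to the lowest score of 5.73.

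The region with the highest score lay on chromosome 12 (42667286 to 42673005, score 197.7), far from any gene: the nearest TSS, of the neuronal leucine-rich repeat gene Lrrn3, was 1184 kb away. Next came a region on chromosome 4 (58225181 to 58230536, 183.9) at 21.3 kb from the TSS of Svep1, a large extracellular matrix protein. The third lay on chromosome 13 (120291043 to 120296544, 181.1), 6.60 kb upstream of the uncharacterised gene BC147527. On X the highest was a region of 5835 bp (107602810 to 107608645, 175.2), the longest of all members, 62.2 kb from Tbx22, a T-box transcription factor gene. A region on chromosome 1 (25120345 to 25125964, 171.4) lay in intron 22 of 30 of Adgrb3, an adhesion receptor of synapses. All 10 regions with the highest score were longer than 4000 bp. The other 5 were nearest to the collagen gene Col8a1 (168.4), the noncoding gene 9530026P05Rik (166.1), Car8, which encodes a carbonic anhydrase-related protein (163.9), the odorant receptor gene Olfr298 (162.5) and the neural transcription factor gene Pou3f2 (159.1).

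By score per kb other regions led, none of them longer than 1501 bp. A pair of regions of 772 and 626 bp on chromosome 10, next to Sf3b5, which encodes a splicing factor subunit, had 45.7 and 41.4 per kb. Between them came regions with Tmprss15 (enteropeptidase, 45.1 per kb, 574 kb away) and Epha6 (an ephrin receptor, 44.6, 328 kb) as nearest genes. Others were nearest to Grin3a (a glutamate receptor subunit, 44.5, 683 kb) and Psg28 (a pregnancy-specific glycoprotein, 44.4, 20.6 kb). So came a region in intron 2 of 4 of B230209E15Rik (44.2), and 1 nearest to Prkd1 (protein kinase D1, 43.6, 136 kb). The rest were nearest to Mei4 (required for meiotic DNA breaks, 43.1, 177 kb) and Lrrc4c (a synaptic adhesion gene, 42.4, 1993 kb). The 5 lowest scores were 5.73, 7.65, 7.86, 8.28 and 8.28. In that order, their nearest genes were Gm10377 (211 kb away), Diap2 (320 kb), Shh (138 kb), Gm10096 (42.4 kb) and Fndc3c1 (77.2 kb). The region nearest to Shh lay in intron 2 of 6 of 9530036O11Rik. Of those 5 regions 3 were on X.

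The regions fell into compact groups along the chromosome. Between an L1Md_Gf region and the previous one on its chromosome there were 244 gaps. Of these, 59 were between 503 and 2652 bp, with a median of 955 bp, and the remaining 185 were 175 kb or longer, with a median of 5.67 Mb. None lay between these limits. With gaps under 10 kb joined, the 264 regions formed 205 chains: 151 of 1 region, 49 of 2 and 5 of 3. Chains of 2 or 3 regions spanned a median of 3871 bp (quartiles 3120 and 5116 bp), of which the regions covered a median of 66.3%. The widest chain spanned 6340 bp, on chromosome 7 (93744117 to 93750457), with regions scoring 80.5 and 84.9. In all, 23 chains spanned more than 5 kb, and 8 of these were unbroken regions.

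**Figure D2:**
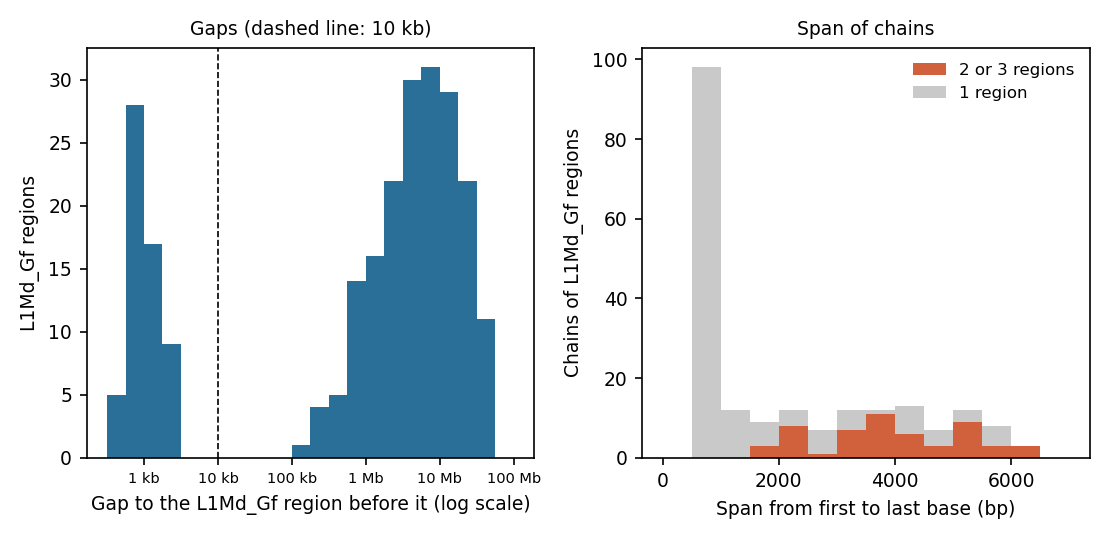
Left, number of L1Md_Gf regions by the gap to the L1Md_Gf region before it, on a log scale with 10 kb dashed. Right, number of chains by span in bp, for chains of 2 or 3 regions (orange) stacked with those of 1 region (grey). Gaps form a group from 503 to 2652 bp and another from 175 kb upward, and no chain is wider than 6340 bp.

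Other L1Md subfamilies were counted in the same way, with 3 and 100 kb as limits set after the gaps had been seen. In that window lay 0 of 244 gaps at L1Md_Gf, 2018 of 8688 (23.2%) at L1Md_T, 1028 of 5810 (17.7%) at L1Md_A and 65 of 905 (7.18%) at L1Md_F2. The subfamilies with fewer regions than L1Md_Gf had 1 of 58 at L1Md_F and 2 of 122 at L1Md_F3, so the empty window is also found, or nearly so, where regions are sparse. Regions in chains of 2 or more made up 42.8% at L1Md_Gf, against 55.8% at L1Md_T, 55.2% at L1Md_A and 11.2% at L1Md_F2. Where chains held several regions, the score per kb within a chain differed by a median factor of 1.22 between its highest and its lowest region, and by at most 2.50.

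Among the 5 chains of 3 regions, 1 lay 53.45 to 57.2 kb from Crisp4, a cysteine-rich secretory protein of the male reproductive tract. It spanned 5326 bp on chromosome 1 (18079393 to 18084719) with scores of 25.7, 20.2 and 65.8. Upstream of Dmd, the dystrophin gene, 3 regions on X spanned 5324 bp (82935500 to 82940824) with scores of 11.9, 10.8 and 53.3, at 13.1, 11.7 and 9.05 kb from the TSS. In these chains and in that with Lrrc4c as nearest gene the last region was the longest and had the highest score. In those nearest to Grin3a and to Gm10488 it was the middle one.

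Chromosome X carried more L1Md_Gf regions than any autosome. There were 51 on X, 19.3% of the members (Wilson 95% interval 15 to 24.5%), and 213 on the autosomes. Per Mb, X carried 0.304 (95% Poisson interval 0.227 to 0.400), and the autosomes 0.0868 ± 0.0417 (SD, n = 19 chromosomes), a ratio of 3.50. Counted as chains the ratio was 3.14. Regions at other L1Md subfamilies were also denser on X, with 11.7 per Mb on X and 5.59 ± 0.97 per Mb on the autosomes (SD, n = 19 chromosomes), a ratio of 2.10. The L1Md_Gf share of all L1Md regions was 2.52% on X (1.93 to 3.30%) and 1.53% on the autosomes (1.34 to 1.75%). No test of this difference was made, since regions are not replicates. Among the other subfamilies X held 11.7% of L1Md_T, 11.9% of L1Md_A, 8.97% of L1Md_F, 23.7% of L1Md_F2 and 22.0% of L1Md_F3 regions. Over all regions on these chromosomes the share on X was 13.9%. The share on X of L1Md_Gf lay above those of L1Md_T, L1Md_A, L1Md_F and all regions. It lay below those of L1Md_F2 and L1Md_F3.

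Autosomes differed too, on small counts. Chromosome 7 held the most, 25 regions, or 0.176 per Mb (0.114 to 0.259), followed per Mb by chromosome 12 with 18 regions (0.154) and chromosome 16 with 14 (0.147). Chromosome 17 held 1 region (82002200 to 82004490, score 81.1), or 0.0109 per Mb (0.000276 to 0.0607), though it had 434 regions at L1Md elements in all. The interval for chromosome 7 lay above those of chromosomes 5, 10, 11 and 17. That for chromosome 17 also lay below those of chromosomes 4, 6, 12 and 16. The intervals of chromosomes 12 and 16 overlapped with those of all other autosomes except chromosome 17.

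**Figure D3:**
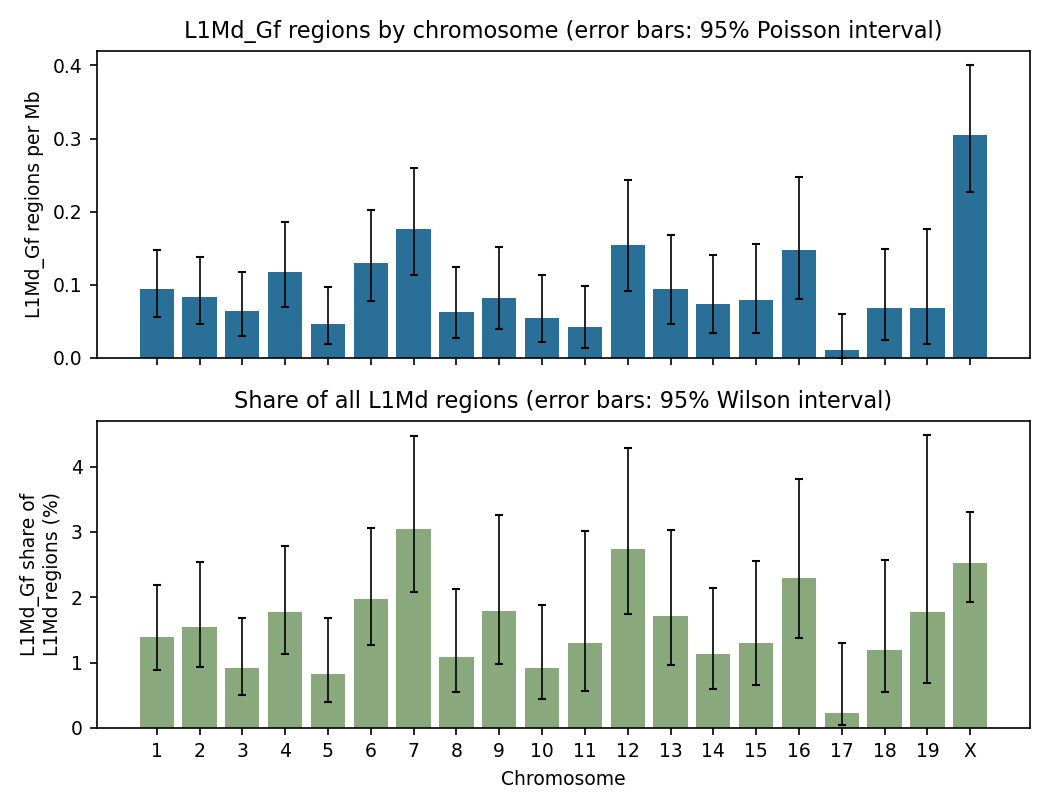
Upper panel, L1Md_Gf regions per Mb of each chromosome with 95% Poisson intervals. Lower panel, their share in percent of all L1Md regions on that chromosome with Wilson 95% intervals. X has the tallest bar per Mb (0.304), chromosome 7 the highest share (3.05%), and chromosome 17, with 1 region, the lowest in both.

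Members on X had lower scores per kb than those on the autosomes, with medians of 26.4 on X (quartiles 22.6 and 31.1) and 30.4 on the autosomes (26.3 and 34.6). The quartile ranges overlapped. Other L1Md regions showed the same order, with 26.4 on X and 29.0 on the autosomes. Length differed less, with medians of 809 bp on X and 892 bp on the autosomes.

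A group of 11 members on X, in 7 chains between 25010095 and 35107603, lay at similar distances from their nearest genes. By the names in the list, their nearest genes were 3 predicted genes, Gm10488 for 6 regions, Gm10058 for 3 and Gm10096 for 2. The regions at Gm10488 and Gm10058 lay downstream of the TSS, and the 2 at Gm10096 lay upstream. Without regard to side, all 11 lay at nearly the same distance from the TSS, between 36.5 and 42.4 kb. That range was known before the next counts were made. Between 36 and 43 kb lay 0 of the 33 other L1Md regions nearest to these genes, and 27 of all 355 regions nearest to them, the 11 members included. The list names Gm10488 and Gm10058 at several places, up to megabases apart. The chains nearest to Gm10488 started at 27906624, 28917629, 30012981 and 35103695. The promoters of these genes are shown because they tell how alike the gene copies are at their starts. No promoter window overlapped a member, and the sequences of the members were not compared. In the RefSeq sequences of build GRCm38.p6, the promoter windows of Gm10488 and Gm10058 did not differ at any of 300 bases. The window of Gm10096, whose annotated start is shifted by 31 bases, shared with both a stretch of 219 bases without a difference. In all, 9 of the 32851 RefSeq promoter windows held that stretch, all on X. It lay at chrX:27946917-27947135 for Gm10058 and at chrX:28954703-28954921 for Gm10096. For the chains starting at 27906624 and 28917629, the list put the TSS of Gm10488 at these places, 38.9 and 36.8 kb away. Its gene names therefore differ from RefSeq there. Slx, an X-linked gene with many copies that is expressed in spermatids, held a related stretch identical at 210 of 219 aligned bases (95.9%), with 9 mismatches and 1 gap base. Both stretches follow, 5′ to 3′ on the strand of the gene, from Gm10488 (+ strand, chrX:29976064-29976282) and from Slx (- strand, chrX:26545566-26545785). Capitals mark bases of Slx that differ from the first stretch or have no partner in it.
Gm10488, Gm10058 and Gm10096: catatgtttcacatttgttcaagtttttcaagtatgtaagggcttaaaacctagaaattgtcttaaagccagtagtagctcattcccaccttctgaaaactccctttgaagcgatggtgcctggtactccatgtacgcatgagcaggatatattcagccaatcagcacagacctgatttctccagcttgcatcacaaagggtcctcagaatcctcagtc
Slx: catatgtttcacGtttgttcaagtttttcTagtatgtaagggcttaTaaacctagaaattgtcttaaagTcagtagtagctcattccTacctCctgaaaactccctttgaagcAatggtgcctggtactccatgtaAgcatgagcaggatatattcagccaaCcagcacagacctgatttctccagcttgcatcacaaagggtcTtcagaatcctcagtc

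The 11 regions had scores from 8.28 to 95.6 and scores per kb from 11.9 to 36.4, with a median of 27.0. The highest score (27906624 to 27909293, 95.6) belonged to a region of 2669 bp, nearest to Gm10488 by the name in the list. The lowest (25013469 to 25014163, 8.28) belonged to a region of 694 bp nearest to Gm10096. Near-identical copies make the placement of reads among them uncertain, but whether the 11 regions are near-identical was not analysed. The sources used here do not say how reads that match several places were treated. Without these 11 regions X held 40 of 253 members (15.8%, Wilson 95% interval 11.8 to 20.8%). With the 33 other L1Md regions nearest to the 3 predicted genes also left out, L1Md_Gf made up 40 of 1976 L1Md regions on X. That share was 2.02% (1.49 to 2.74%), an interval that overlaps that of the autosomes (1.34 to 1.75%).

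**Figure D4:**
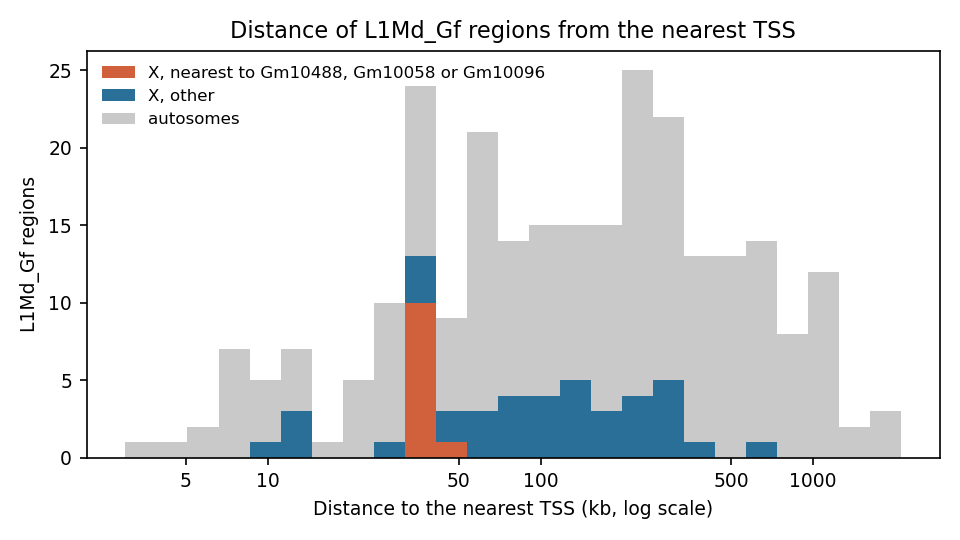
Number of L1Md_Gf regions by distance to the nearest TSS in kb on a log scale, with X regions nearest to Gm10488, Gm10058 or Gm10096 (orange), other X regions (blue) and autosomal regions (grey) stacked. The 11 orange regions sit together between 36.5 and 42.4 kb, and no region is closer than 3.36 kb.

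Most L1Md_Gf regions lay between genes. By the authors' annotation 229 were intergenic (86.7%, Wilson 95% interval 82.1 to 90.3%) and 35 intronic (13.3%, 9.69 to 17.9%), and none fell in another class. The intergenic share was 78.8% at L1Md_T, 80.5% at L1Md_A, 79.7% at L1Md_F2 and 76.6% at L1Md_F3, but 94.9% at L1Md_F, and it was 78.5% over all regions on these chromosomes. Distance to the nearest TSS had a median of 137 kb at L1Md_Gf (quartiles 46.2 and 322 kb), 127 kb at L1Md_T and 144 kb at L1Md_A. More than 100 kb away lay 153 members (58.0%, 51.9 to 63.8%), against 57.1% of other L1Md regions, 60.1% of L1Md_A regions and 51.7% of all regions. The interval included the shares of other L1Md and of L1Md_A. Within 1 kb of a TSS lay 0 of 264, which allows a share of up to 1.14% (3 counts of 264), while all regions on these chromosomes together had 0.2%. A lower share at L1Md_Gf was therefore not detectable with this number of regions.

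Within 10 kb of a TSS there were 14 members (5.30%, 3.18 to 8.70%), against 4.64% of L1Md_T, 10.3% of L1Md_F, 10.6% of L1Md_F3 and 6.76% of all regions. The interval included the share over all regions. The nearest was 3.36 kb upstream of the odorant receptor gene Olfr834 (chromosome 9, 18982956 to 18986302, score 111.9). A chain of 2 regions lay 4.49 and 7.72 kb upstream of Il23r, the receptor of the cytokine interleukin-23 (chromosome 6, 67495114 to 67501037, scores 91.7 and 82.6). The pair next to Sf3b5 was at 5.50 and 6.92 kb. Others lay 5.98 kb from Zfp114, a zinc finger gene (66.5), 6.60 kb from BC147527 (181.1) and 6.87 kb from the noncoding gene 4930579G24Rik (80.9). The last of the 10 nearest were 7.67 kb from Tigd2, a gene derived from a transposase (23.6), and 7.86 kb from Dsg1a, a desmoglein of cell junctions (score 14).

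The 35 intronic regions lay in 27 genes, of which 8 held 2 regions. Their score per kb had a median of 30.2 (quartiles 25.7 and 35.8) in introns and 29.4 (25.6 and 34.3) between genes, so the groups overlapped almost fully. The highest scores after Adgrb3 were in intron 3 of 8 of Car8 (163.9), in intron 3 of 8 of Akr1c14, an aldo-keto reductase (154.4), and in intron 4 of 11 of Hpse2, a heparanase relative (142.1, with a second region of 18.5). Intron 19 of 19 of 2210408I21Rik had 129.1. Csmd3, a large transmembrane protein of neurons, had regions of 112.3 and 66.5 in intron 5 of 70, and Oca2, a melanosome transporter gene, had 80.3 and 29.7 in its last intron. On X, regions lay in introns of Nexmif (78.4 and 46.1) and of the teneurin gene Tenm1 (58.2 and 21.4). Other hosts were Ppp2r2b, a phosphatase 2A subunit (73.9), Chrm2, a muscarinic receptor (58.8), the delta-catenin gene Ctnnd2 (26.8) and Grid1, a glutamate receptor subunit (23.8). Further hosts among the 20 with the highest score were Sugct (64.6), Ces5a, a carboxylesterase (54.6 and 20.6), Tafa4 (36.5 and 20.2), Dcdc2c (35.0), Fam155a (25.1), Trim30d (24.8) and B230209E15Rik (22.1). Host and nearest gene had the same symbol for 19 of the 35 regions. That count is a minimum, since symbols were compared as written. The 2 regions in Tafa4 had Fam19a4 as nearest gene and the 2 in Nexmif had C77370, which are older symbols of the same genes.

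Nearest genes were widely spread. The 264 regions named 198 of them, of which 145 were nearest to 1 region, 45 to 2 and 8 to 3 or more. Protein-coding genes accounted for 221 regions (83.7%) and noncoding genes for 37 (14%). Regions of more than 1 chain shared a nearest gene in 6 cases. Apart from Gm10488 and Gm10058 these were Lrrc4c with 5 regions in 3 chains, at 270 to 1997 kb from its TSS, the neuronal gene Brinp1 with 3 in 2 chains, the metabotropic glutamate receptor gene Grm7 with 3 in 2 chains and the RNA-binding protein gene Khdrbs2 with 3 in 2 chains. Crisp4 and Dmd each had 3 regions in 1 chain, given above.

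Gene families and a list of genes that silence L1 were counted among the nearest genes. Vomeronasal receptors of type 1 were nearest to 1 member (0.379%), Vmn1r184 (score 132.5), against 0.903% of all regions on these chromosomes. For type 2 there were 3 members (1.14%), at Vmn2r10 (12.7), Vmn2r36 (14.7) and Vmn2r46 (20.8), against 1.11%. Odorant receptors had 4 members (1.52%), at Olfr298 (162.5), Olfr834 (111.9), Olfr786 (63.7) and Olfr910 (15.3), against 1.91%. Zinc finger genes named Zfp had 2 (0.758%), both at Zfp114 (66.5 and 13.4), against 0.973%. X-linked multicopy genes named Slx, Xlr, Magea, Rhox or Sstx had 0 by name, against 0.248%, and the 29 silencing genes, such as Piwil2, Mael, Dnmt3l and Setdb1, had 0, against 0.0434%. Each share of L1Md_Gf had an interval that included the share over all regions.

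The last comparison asked whether score per kb at L1Md_Gf differed from that at related subfamilies. The median was 29.7 at L1Md_Gf, against 28.8 over the 15682 regions at other L1Md elements, 29.3 at L1Md_T, 28.9 at L1Md_A, 28.2 at L1Md_F and 23.4 at L1Md_F2. The difference from all other L1Md regions was 0.865 per kb, small beside the quartiles of 25.6 and 34.4. The order-statistic 95% interval of the L1Md_Gf median, less the fixed median of other L1Md, ran from -0.297 to 1.70, so its sign was not fixed. On the autosomes alone the difference was 1.33 (0.0748 to 2.21), and with chromosome Y and unplaced contigs included it turned to -4.15 (-7.42 to -2.34). The difference was not the same at every length. In regions of 500 bp the medians were 27.2 at L1Md_Gf and 25.4 at other L1Md, in those over 500 and up to 1000 bp 29.5 and 28.0, and in those over 4000 bp 34.3 and 31.9. Over 1000 and up to 2000 bp the order was the other way, with 28.4 at L1Md_Gf (40 regions) and 30.4 at other L1Md, and over 2000 and up to 4000 bp it was 30.9 and 31.3.

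**Figure D5:**
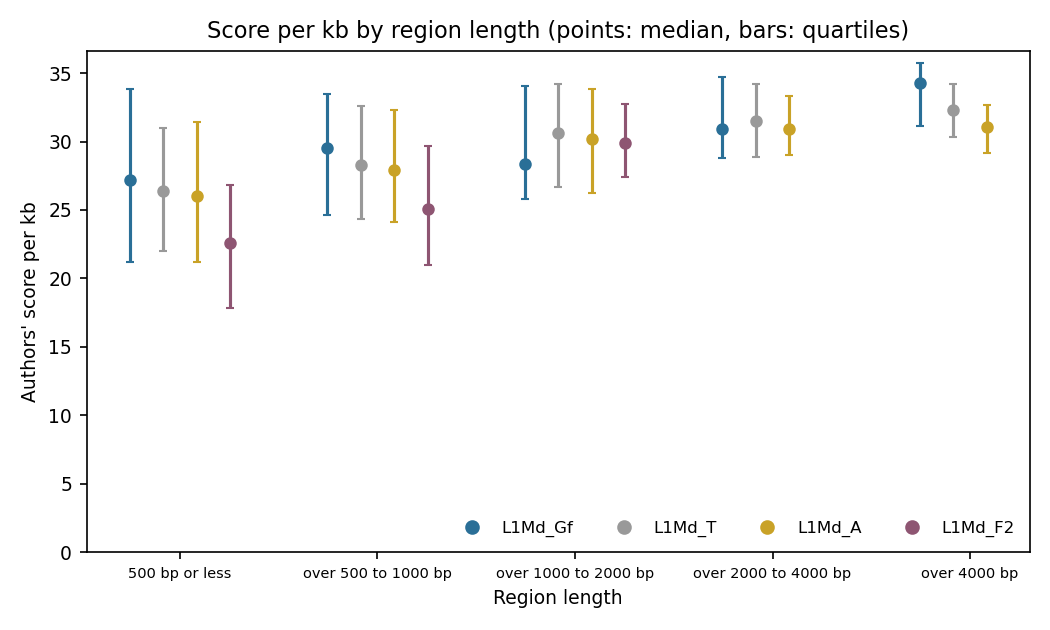
Authors' score per kb by class of region length, for L1Md_Gf, L1Md_T, L1Md_A and L1Md_F2, with medians as points and quartiles as bars (classes under 20 regions not drawn). The L1Md_Gf median is 34.3 over 4000 bp, above the medians of L1Md_T (32.3) and L1Md_A (31.1), and 28.4 over 1000 and up to 2000 bp, below both.

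The upper tail was also counted. Among the 10% of regions on chromosomes 1 to 19 and X with the highest score per kb, from 36.4 upward, were 43 L1Md_Gf regions in 42 chains, or 16.3% of the members (Wilson 95% interval 12.3 to 21.2%). The same share was 11.5% at L1Md_T, 8.99% at L1Md_A, 12.8% at L1Md_F and 3.78% at L1Md_F2. By length it was 16.4% at L1Md_Gf against 8.17% at other L1Md in regions of 500 bp, and 14.7% against 10.2% over 500 and up to 1000 bp. Over 1000 and up to 2000 bp it was 17.5% against 14.1%, over 2000 and up to 4000 bp 17.1% against 8.77%, and over 4000 bp 19% against 9.86%. On X it was 11.8% at L1Md_Gf against 6.20% at other L1Md, and on the autosomes 17.4% against 10.6%. The interval at L1Md_Gf included the share at other L1Md in regions on X (5.51 to 23.4%) and in 4 of the 5 length classes, those over 500 and up to 1000 bp (8.99 to 23.2%), over 1000 and up to 2000 bp (8.75 to 31.9%), over 2000 and up to 4000 bp (8.53 to 31.3%) and over 4000 bp (7.67 to 40.0%). It was above that share at 500 bp (9.42 to 27.1%) and on the autosomes (12.9 to 23.0%). No test was made on these counts.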

How the data were processed

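The series holds 3 SPOC1 ChIP and 3 input libraries, grouped by their descriptions. The authors deposited a list for all libraries together, with a score per region. It is output of HOMER's annotatePeaks for mm10, per the file headers. The submitters' processing notes name Bowtie2 2.2.2, SAMtools and HOMER 4.6 without roles. Which libraries were pooled, which control and peak settings were used, and the depth per library, are not given in the sources used here. With 0 columns per library, the planned ChIP against input test was not made.

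Computed here were counts, medians, quartiles, Wilson and Poisson 95% intervals, score per kb and chains (gaps under 10 kb), with SciPy 1.17.1, NumPy 2.4.6 and pandas 2.3.3 in Python 3.11.15, and drawn with matplotlib 3.10.9. Chromosome spans ran from the outermost gene or region. Host transcripts of all 35 intronic regions matched RefSeq (GRCm38.p6). Biopython 1.88 aligned promoters. Functions were tested on simulated data. Named were the 10 highest regions by score and by score per kb, the 5 longest and 5 lowest, the 10 nearest to a TSS, the 10 most frequent nearest genes where above 2 regions, the 20 top hosts, and list members. The members, lists and alternatives were chosen with earlier results of these data known.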

Additional observations from a re-analysis of the deposited data

Results flagged for a closer look

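L1Md_Gf was also named at 165 regions on chromosome Y, which were outside the comparisons above and are given for that reason. The median score per kb was 29.7 (quartiles 25.6 and 34.4) for L1Md_Gf on chromosomes 1 to 19 and X, and 14.4 (13.1 and 16.4, highest value 32.2) for L1Md_Gf on Y. The median length was 781 bp on Y. Other regions on Y also had low values. There L1Md_T regions had a median of 18.1 per kb and L1Md_A regions 22.2, and all 15782 regions together had 12.7. No input value is in the list, and the difference was not tested.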

How the results depend on the processing

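With chromosome Y and unplaced contigs included, the L1Md_Gf count was 432, the share of all L1 regions 2.10%, the share on X 11.8%, the intergenic share 91.0%, the median score 18.9 and the median score per kb 24.2. The difference in score per kb from other L1Md regions was then -4.15. Without regions of exactly 500 bp the median length was 1044 bp and the median score 30.6. In the 50% of all regions with the higher score, the share of L1 was 1.90%, the median length 1110.5 bp, the median score 32.5 and the score per kb 31.2, since that choice removes low scores. Within length classes, the difference from other L1Md regions was 1.8 at 500 bp, 2.39 over 4000 bp, -2.02 over 1000 and up to 2000 bp and -0.373 over 2000 and up to 4000 bp, for which the cause was not tested. The other 53 recomputed values stayed within the interval of the reported value, or within 1.5 times the reported count. These included autosomes only, intergenic regions only, 1 region per chain and the alternative without the 3 predicted genes, which was chosen after seeing the data. No paired analysis was possible because 1 list covers all libraries, and the replicate block was not run for that reason.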

Other observations

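Members often had other regions of the list close by. Another region lay within 5 kb of 173 L1Md_Gf regions (65.5%), against 57.2% of L1Md_T and 57.4% of L1Md_A regions. At L1Md_F it was 39.7%, at L1Md_F2 18.5% and at L1Md_F3 16.3%. The share over all regions on these chromosomes was not computed, so 65.5% cannot be called particular to L1Md_Gf. For 110 of the 173 the closest was another L1Md_Gf region, for 39 an L1Md_T region, for 7 an L1Md_A region and for 5 the retrovirus IAPEz-int. Among regions with such a neighbour, the closest was an L1Md_T region for 22.5% at L1Md_Gf, 29.0% at L1Md_F, 21.7% at L1Md_F3 and 15.2% at L1Md_F2. At L1Md_A it was 3.65%, but there the closest was another L1Md_A region for 3087 of 3345, which leaves few for any other name. L1Md_T was also the L1Md name with the most regions on these chromosomes (8708 of 23030 regions in all).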
